A study of Mus musculus with 9 samples.

Results

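The proteasome genes were the 50 protein-coding genes, of 21676 genes in the count table, whose symbols begin with Psm, one of the letters a to g and a digit. They comprised 7 alpha-ring and 4 structural beta-ring subunits, the 3 constitutive catalytic subunits Psmb5, Psmb6 and Psmb7, their 3 inducible counterparts Psmb8, Psmb9 and Psmb10, and the thymic subunit Psmb11. The regulatory particle contributed 6 ATPases, 3 other base subunits and 8 lid subunits. The remaining members were the inducible activator subunits Psme1 and Psme2, the activators Psme3 and Psme4, 4 assembly chaperones of the core, 3 of the regulatory particle, and 4 symbols that fit the pattern without naming a subunit (Psmf1, Psme2b, Psmc3ip and Psme3ip1).

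RNA of B16 cells, a mouse melanoma line, was sequenced in 9 libraries. Cells carrying the hairpin shAD4-1, cells carrying the hairpin shAD4-2 and cells carrying a control hairpin (written shCotrol in the labels, here shControl) gave 3 replicates each, described by the submitters as biological. The 2 AD4 hairpins define the knockdown lines of the series, whose title names ADGRL4. Adgrl4 itself was not analysed here. All 9 libraries came from cultured cells without further treatment named in the labels. The titles do not say whether the replicates of a hairpin come from 1 derivative of the line or from several. A hairpin and the history of the cells that carry it therefore cannot be told apart. All comparisons with shControl share the same 3 control libraries.

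The proteasome degrades proteins tagged with ubiquitin. Its core is a barrel of alpha and beta rings in which 3 beta subunits cut peptide bonds, and its regulatory particle, made of a base with ATPases and a lid, binds, deubiquitinates and unfolds the substrate. Interferon signalling replaces the catalytic subunits with Psmb8, Psmb9 and Psmb10 in newly assembled cores (the immunoproteasome) and raises the activator of Psme1 and Psme2. Both are known for shaping the peptides shown by MHC class I. When proteasome activity falls short, the transcription factor encoded by Nfe2l1 (Nrf1) is known to raise subunit genes together.

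The upstream sequences of Psmb8 and Psmb9 and of the constitutive subunits they replace, Psmb5 and Psmb6, are shown because the partners of a pair occupy the same place in the beta ring but have separate promoters, and because Psmb9 and Psmb6 moved in opposite directions. Each line gives the 250 bases before the RefSeq start of the gene (GRCm38.p6), read 5′ to 3′ along the gene. The windows are chr17:34197945-34198194 on the plus strand for Psmb8, chr17:34187331-34187580 on the minus strand for Psmb9, chr14:54617996-54618245 on the minus strand for Psmb5 and chr11:70525107-70525356 on the plus strand for Psmb6. Capitals mark matches, on either strand, to GAAA and GAAA with NN between them (a form of the site of interferon regulatory factors), TTCNNNGAA (a form of the gamma-activated site of interferon signalling), TGACNNNGC (the core of the antioxidant response element, which Nrf1 also binds) or CCAAT (the site of NF-Y).
Psmb8: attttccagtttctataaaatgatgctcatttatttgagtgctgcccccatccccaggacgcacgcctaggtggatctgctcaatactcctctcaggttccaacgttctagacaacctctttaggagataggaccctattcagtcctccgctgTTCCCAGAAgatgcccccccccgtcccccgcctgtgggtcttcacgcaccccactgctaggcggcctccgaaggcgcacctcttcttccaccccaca
Psmb9: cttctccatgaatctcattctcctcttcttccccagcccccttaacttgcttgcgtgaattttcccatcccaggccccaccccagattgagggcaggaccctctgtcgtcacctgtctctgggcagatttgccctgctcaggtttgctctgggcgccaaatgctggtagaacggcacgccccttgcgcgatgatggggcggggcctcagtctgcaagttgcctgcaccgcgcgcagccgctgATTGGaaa
Psmb5: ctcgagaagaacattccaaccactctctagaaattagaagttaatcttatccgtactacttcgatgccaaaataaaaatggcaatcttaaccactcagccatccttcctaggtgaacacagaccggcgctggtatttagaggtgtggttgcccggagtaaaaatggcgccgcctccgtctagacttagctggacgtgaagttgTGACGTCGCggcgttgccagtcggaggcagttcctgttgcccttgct
Psmb6: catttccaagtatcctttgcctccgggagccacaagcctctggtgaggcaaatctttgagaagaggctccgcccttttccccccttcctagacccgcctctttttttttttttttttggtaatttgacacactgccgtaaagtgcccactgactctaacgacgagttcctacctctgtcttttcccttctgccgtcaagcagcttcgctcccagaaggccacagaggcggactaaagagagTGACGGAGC
The window of Psmb8 held 1 TTCNNNGAA match, at -97 to -89 before the start, and that of Psmb9 held 1 CCAAT match on the opposite strand, at -8 to -4. The windows of Psmb5 and Psmb6 each held 1 TGACNNNGC match, at -47 to -39 and at -9 to -1. Of the 50 members, 43 had a window. TGACNNNGC was present for 5 of these 43 genes (Psmb5, Psmb6, Psmc6, Psmd9 and Psmd12), and in 10.2% of 32851 RefSeq windows of the same length. The interferon regulatory factor form was present for 3 members (Psmb3, Psmd4 and Psmd9) and in 2.98% of all windows, TTCNNNGAA for 2 (Psmb8 and Psmg1) and 7.02%, and CCAAT for 16 and 33.9%. The member figures count genes, some with more than 1 window (Psme2 has 2), whereas the percentages count windows. These matches describe letters in 1 short window per start, and alternative starts were not covered. In the GENCODE M21 annotation, the bases just after the start lay near the beginning of 0 of 7 Psmb8 transcripts and 3 of 7 of Psmb9. For Psmb5 and Psmb6 this held for 2 of 2 and 0 of 4. The Psmb8 and Psmb9 windows lie inside the annotated gene spans (chr17:34197721-34201454 and chr17:34181987-34187764), so starts annotated further upstream were not searched.

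Expression was measured as read counts per gene, with 31.3 to 36.9 M reads per library, and as FPKM (reads scaled by gene length and library total), which compares levels between genes. Melanocyte markers were present as the labelled cell type requires, with all 8 of the list expressed and a summed level of 4000 to 4099 FPKM in shAD4-1, 4377 to 4784 in shAD4-2 and 4661 to 5360 in shControl cells. By the calls defined below, 0 of the 8 were higher and 8 lower with shAD4-1, and 2 higher and 3 lower with shAD4-2. All tested genes had 32.7% higher and 32.3% lower with shAD4-1, and 34.2% and 34.8% with shAD4-2. Mitochondrial transcripts took 3.62 to 3.81% of reads in shAD4-1, 3.60 to 3.89% in shAD4-2 and 2.30 to 2.61% in shControl libraries. The part of these shifts in the results was not tested. The control replicate 1 stood apart from the other 2 control libraries, with a chi-square per degree of freedom of 12.4 and 18.1 against them, where these 2 differed by 3.44. Counts of members are therefore also given without it. The members together took 0.648 to 0.649% of reads in shAD4-1, 0.655 to 0.679% in shAD4-2 and 0.672 to 0.676% in shControl libraries, so the ranges of shAD4-2 and shControl overlapped and shAD4-1 lay below both.

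Changes were tested with edgeR's quasi-likelihood test over 13807 genes, and a gene was called higher or lower when its Benjamini-Hochberg adjusted p was under 0.05. Of the 48 members with enough reads to be tested, 16 were called higher and 22 lower with shAD4-1. Among all tested genes 65.0% were called in this comparison, 32.7% higher and 32.3% lower. With shAD4-2, 20 members were called higher and 21 lower, against a background of 69.0% of all genes, 34.2% higher and 34.8% lower. Without control replicate 1 the counts were 17 higher and 23 lower with shAD4-1, and 20 higher and 21 lower with shAD4-2. Over all genes that fit called 9206 of 14028 with shAD4-1 and 9704 of 14028 with shAD4-2. The median log2 fold change of the tested members was -0.04 with shAD4-1 and -0.02 with shAD4-2, beside -0.01 for all tested genes in each comparison. Members called in either direction were 79.2% of those tested with shAD4-1 and 85.4% with shAD4-2, and calls fell in both directions with each hairpin.

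Most changes were small. Changes of at least 1.5-fold were called for 3 members higher and 6 lower with shAD4-1, where all genes had 12.6% higher and 12.5% lower. With shAD4-2 there were 5 higher and 6 lower, where all genes had 13.7% and 15.6%. Regardless of sign, the median member moved by 0.29 on the log2 scale with shAD4-1 and 0.33 with shAD4-2, beside 0.34 and 0.38 over all tested genes.

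**Figure D1:**
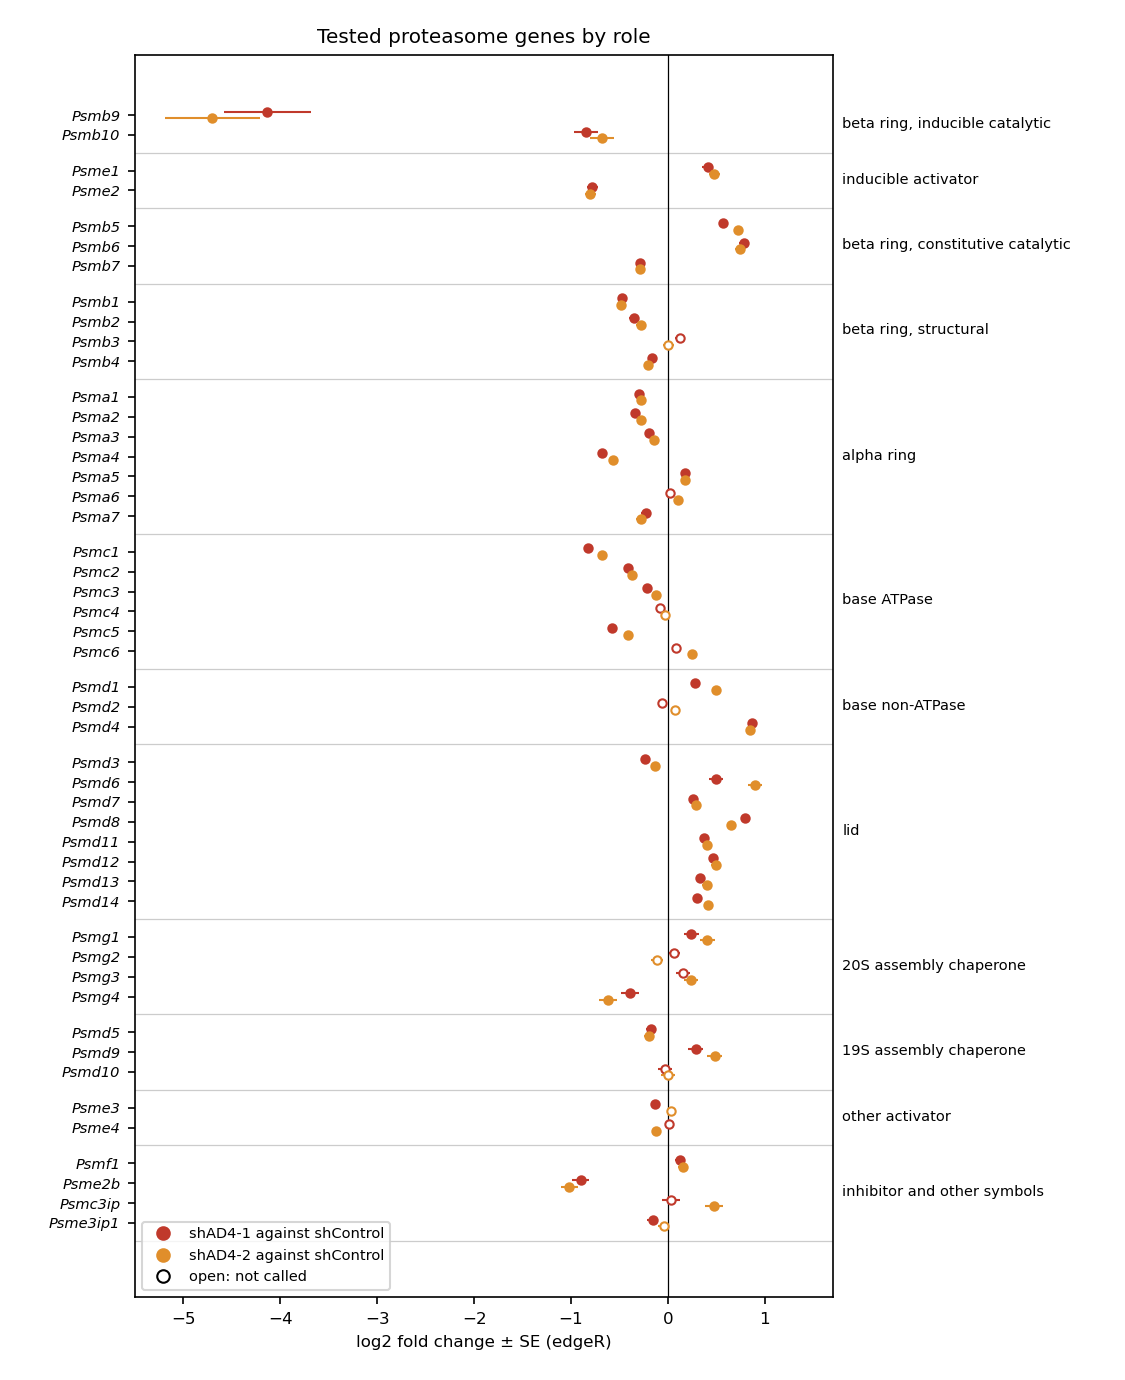
Log2 fold change (x axis, edgeR, ± SE) of the 48 tested proteasome genes, grouped by role, for shAD4-1 (red) and shAD4-2 (orange) against shControl, with open circles for values that were not called. Psmb9 lies at -4.13 and -4.70, the lid genes other than Psmd3 lie right of 0, and most alpha-ring, structural beta-ring and ATPase genes lie left of 0.

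The 3 inducible catalytic subunits were low in these cells, and the pair that could be tested, Psmb9 and Psmb10, was called lower with both hairpins. Psmb9, which replaces Psmb6 at the caspase-like site, had 0.123, 0.0503 and 0.0733 FPKM in shAD4-1 cells and 0.0494, 0.0288 and 0.0860 FPKM in shAD4-2 cells, against 1.49, 1.85 and 1.34 FPKM in shControl cells. These levels rest on 5, 2 and 3 reads in shAD4-1, 2, 1 and 3 reads in shAD4-2, and 52, 71 and 54 reads in shControl libraries. Every hairpin library was thus far below every control library. With 1 to 5 reads in the hairpin libraries, Psmb9 passed the filter on low counts (10 reads) only through the control libraries. A gene so low in the hairpin libraries could be tested only if it was higher in the control. The direction of its call was thus fixed by the filter. Psmb9 was 17.5-fold lower with shAD4-1 (log2 fold change -4.13 ± 0.44 SE, adjusted p = 1.86e-07, edgeR) and 26-fold lower with shAD4-2 (-4.70 ± 0.49, adjusted p = 9.45e-08). Between shAD4-2 and shAD4-1 the Psmb9 value was -0.57 ± 0.74 (adjusted p = 0.618, edgeR). In the GENCODE M21 annotation (GRCm38), 212 of the 3660 exon bases of Psmb9 overlap exons of Tap1 on the opposite strand, so reads in that stretch cannot be assigned to either gene if strand was not used.

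Psmb10, which replaces Psmb7 at the trypsin-like site, was the best expressed inducible catalytic subunit. It had 3.47, 4.42 and 3.71 FPKM in shAD4-1 cells and 4.24, 4.80 and 3.99 FPKM in shAD4-2 cells, against 7.58, 7.09 and 7.04 FPKM in shControl cells. The ranges of the hairpin and control libraries did not overlap. Psmb10 was 1.79-fold lower with shAD4-1 (log2 fold change -0.84 ± 0.12, adjusted p = 9.46e-06, edgeR) and 1.60-fold lower with shAD4-2 (-0.68 ± 0.12, adjusted p = 8.89e-05).

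Psmb8, which replaces Psmb5 at the chymotrypsin-like site, was close to the detection limit. It had 1, 0 and 2 reads in shAD4-1, 2, 4 and 2 reads in shAD4-2, and 4, 4 and 15 reads in shControl libraries, and it did not pass the filter on low counts. The control total of 23 reads came mostly from replicate 3. Relative to library totals the summed reads were 0.122 of the control level with shAD4-1 (95% interval 0.0235 to 0.404) and 0.359 with shAD4-2 (0.139 to 0.832), intervals that cover counting error only. Psmb8 was tested with edgeR only when no filter was applied, which gave adjusted p = 0.0257 with shAD4-1 and 0.273 with shAD4-2. The gene annotated antisense to Psmb8, Gm20496, shares 498 of its 3381 exon bases. Psmb11, the catalytic subunit of cortical thymic epithelium, had 1 read in the 9 libraries together, in a control library.

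The constitutive partners of these subunits were expressed at 78.3 to 261 FPKM and did not move as a group. Psmb6 had 141, 142 and 130 FPKM in shAD4-1 cells and 138, 140 and 123.3 FPKM in shAD4-2 cells, against 78.3, 85.2 and 85.6 FPKM in shControl cells. It was 1.72-fold higher with shAD4-1 (0.79 ± 0.05, adjusted p = 3.7e-10, edgeR) and 1.67-fold higher with shAD4-2 (0.74 ± 0.05, adjusted p = 6.81e-10). Psmb5 had 159, 157 and 150 FPKM in shAD4-1 cells and 173, 173 and 174 FPKM in shAD4-2 cells, against 107, 107 and 113 FPKM in shControl cells. Both genes were higher in every hairpin library than in any control library. Psmb5 was 1.48-fold higher with shAD4-1 (0.57 ± 0.04, adjusted p = 5.05e-10, edgeR) and 1.65-fold higher with shAD4-2 (0.72 ± 0.04, adjusted p = 1.41e-11). Psmb7 went the other way. It had 200, 195 and 205 FPKM in shAD4-1 cells and 203, 203 and 197 FPKM in shAD4-2 cells, against 242, 259 and 261 FPKM in shControl cells. It was 1.22-fold lower with each hairpin (-0.29 ± 0.04, adjusted p = 3.9e-06 with shAD4-1, and -0.28 ± 0.04, adjusted p = 4.22e-06 with shAD4-2, edgeR). Psmb7 shares 405 exon bases with Nek6 on the opposite strand.

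**Figure D2:**
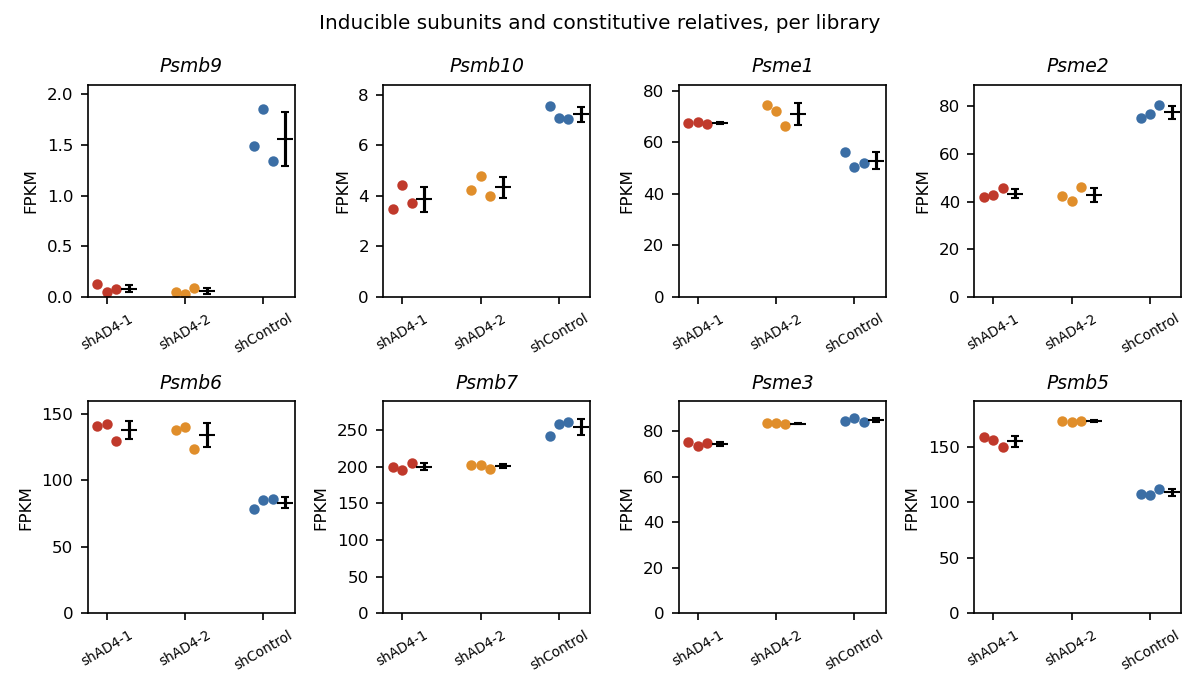
FPKM (y axis, from 0) per library of inducible subunits and constitutive relatives, for shAD4-1, shAD4-2 and shControl cells, with the mean and SD (n = 3) beside the points. Psmb9, Psmb10, Psme2 and Psmb7 are lower, and Psmb6, Psmb5 and Psme1 higher, in all 6 hairpin libraries than in the 3 control libraries, while Psme3 of shAD4-2 lies close to control.

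Ratios within a library set each inducible subunit beside the subunit it replaces, on the FPKM scale. Psmb9 was 0.0354 to 0.087% of the summed level of Psmb9 and Psmb6 in shAD4-1 cells and 0.0206 to 0.0698% in shAD4-2 cells, against 1.54 to 2.13% in shControl cells. Psmb10 was 1.71 to 2.21% of the sum with Psmb7 in shAD4-1 cells and 1.98 to 2.32% in shAD4-2 cells, against 2.62 to 3.04% in shControl cells. Psmb8 was at most 0.0296% of the sum with Psmb5 in shAD4-1 cells and 0.0259 to 0.0604% in shAD4-2 cells, against 0.0883 to 0.299% in shControl cells. For each pair, both hairpins lay below every control library. The log2 ratio of Psmb9 to Psmb6 differed from control by -5.06 with shAD4-1 and -5.64 with shAD4-2, and that of Psmb10 to Psmb7 by -0.56 and -0.40. Each of these gave p = 0.1 in a two-sided exact permutation test of 3 against 3 libraries, the smallest p this design allows. In all 3 groups the constitutive partner therefore made up nearly all transcripts of its pair.

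The activator subunits Psme1 and Psme2, which assemble together into a ring that opens the core, moved in opposite directions. Psme1 had 67.5, 67.7 and 67.1 FPKM in shAD4-1 cells and 74.4, 72.0 and 66.3 FPKM in shAD4-2 cells, against 56.4, 50.2 and 52.0 FPKM in shControl cells. Psme2 had 41.9, 42.6 and 45.5 FPKM in shAD4-1 cells and 42.2, 40.2 and 45.9 FPKM in shAD4-2 cells, against 75.2, 76.6 and 80.5 FPKM in shControl cells. Neither gene had overlapping hairpin and control libraries, and the order of the subunits reversed, with Psme1 above Psme2 in every hairpin library and below it in every control library. Psme1 was 1.33-fold higher with shAD4-1 (0.41 ± 0.05, adjusted p = 2.05e-06, edgeR) and 1.40-fold higher with shAD4-2 (0.48 ± 0.05, adjusted p = 2.38e-07). Psme2 was 1.72-fold lower with shAD4-1 (-0.78 ± 0.06, adjusted p = 8.16e-10, edgeR) and 1.74-fold lower with shAD4-2 (-0.80 ± 0.06, adjusted p = 5.06e-10). Psme2b averaged 11.1 ± 1.15 FPKM in shAD4-1 cells, 10.3 ± 0.586 in shAD4-2 cells and 21.6 ± 1.35 in shControl cells (SD, n = 3 each), but its transcript is identical to that of Psme2 at 789 of 794 aligned bases. Its log2 fold changes of -0.90 and -1.02 are uncertain for that reason, and the same holds in part for Psme2.

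Psme3, which forms a nuclear activator ring, and Psme4, a single-chain activator, changed little. Psme3 averaged 74.5 ± 0.833 FPKM in shAD4-1 cells, 83.3 ± 0.182 in shAD4-2 cells and 84.7 ± 0.852 in shControl cells (SD, n = 3 each). It was called lower with shAD4-1 (-0.13 ± 0.03, adjusted p = 0.00243, edgeR), and its value with shAD4-2 was 0.03 ± 0.03 (adjusted p = 0.406). Psme4 averaged 30.3 ± 0.594 FPKM in shAD4-1 cells, 27.7 ± 1.07 in shAD4-2 cells and 31.2 ± 0.117 in shControl cells (SD, n = 3 each). Its log2 fold change was 0.01 ± 0.04 with shAD4-1 (adjusted p = 0.737, edgeR), and it was called lower with shAD4-2 (-0.12 ± 0.04, adjusted p = 0.00878). That call was lost without shAD4-2 replicate 2, where the value was -0.09 (adjusted p = 0.0689, edgeR).

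Most of the 14 constitutive core subunits were called lower. With shAD4-1, 3 were called higher (Psmb5, Psmb6 and Psma5) and 9 lower, and with shAD4-2, 4 were called higher (the same genes and Psma6) and 9 lower, at median log2 fold changes of -0.21 and -0.24. Among all tested genes, 32.7% were called higher and 32.3% lower with shAD4-1, and 34.2% and 34.8% with shAD4-2. Of the 7 alpha-ring genes, whose products gate the entry to the core, 5 were called lower with each hairpin. Their summed level was 628.7 to 647.9 FPKM in shAD4-1, 644.3 to 667.7 in shAD4-2 and 771.3 to 777.5 in shControl libraries. Psma4 had the largest change among the 7, with 78.2, 82.7 and 86.1 FPKM in shAD4-1 cells and 89.7, 88.1 and 89.6 FPKM in shAD4-2 cells, against 144, 132 and 135 FPKM in shControl cells. It was 1.60-fold lower with shAD4-1 (-0.68 ± 0.04, adjusted p = 1.86e-10, edgeR) and 1.48-fold lower with shAD4-2 (-0.56 ± 0.04, adjusted p = 1.85e-09). Psma5 was the alpha-ring gene called higher with both hairpins, at 0.18 in each comparison, a call lost in limma on log2(FPKM + 1) without a filter (adjusted p = 0.0655 and 0.0578). Psma6 moved least, with 0.02 ± 0.04 for shAD4-1 (adjusted p = 0.607, edgeR) and 0.10 ± 0.04 for shAD4-2 (adjusted p = 0.0289). The second of these calls was lost without shControl replicate 2 (adjusted p = 0.0539), shAD4-2 replicate 1 (0.0621) or shAD4-2 replicate 2 (0.157), and with upper-quartile scaling (0.128, edgeR).

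Of the 4 structural beta-ring genes, 3 were called lower with each hairpin and Psmb3 with neither. All tested genes had 32.3% called lower with shAD4-1 and 34.8% with shAD4-2. Psmb1 had 154, 146 and 149 FPKM in shAD4-1 cells and 155, 148 and 144 FPKM in shAD4-2 cells, against 205, 221 and 225 FPKM in shControl cells, without overlap. It was 1.39-fold lower with shAD4-1 (-0.48 ± 0.04, adjusted p = 2.05e-08, edgeR) and 1.40-fold lower with shAD4-2 (-0.49 ± 0.04, adjusted p = 1.31e-08). Psmb3 had log2 fold changes of 0.13 ± 0.06 with shAD4-1 (adjusted p = 0.0537, edgeR) and 0.01 ± 0.06 with shAD4-2 (adjusted p = 0.932). With shAD4-1 the Psmb3 value passed the threshold without shControl replicate 2 (0.0425) or replicate 3 (0.0121), or without shAD4-2 replicate 3 (0.0255).

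In the regulatory particle the ATPases and the other subunits went different ways. Of all tested genes, 32.3% were called lower with shAD4-1, and 34.8% lower and 34.2% higher with shAD4-2. Of the 6 ATPases, which form the unfolding ring of the base, 4 were called lower with each hairpin, and 1 was called higher with shAD4-2. Their summed level was 659.7 to 664.7 FPKM in shAD4-1, 699.5 to 726.4 in shAD4-2 and 916.3 to 929 in shControl libraries. Psmc1, the ATPase known as Rpt2, had 155, 151 and 158 FPKM in shAD4-1 cells and 174, 172 and 171 FPKM in shAD4-2 cells, against 294, 283 and 281 FPKM in shControl cells, and was the most abundant of the 31 constitutive core and cap subunits in the control. It was 1.78-fold lower with shAD4-1 (-0.83 ± 0.03, adjusted p = 4.37e-13, edgeR) and 1.60-fold lower with shAD4-2 (-0.67 ± 0.03, adjusted p = 6.19e-12). Psmc4 had -0.08 ± 0.04 with shAD4-1 (adjusted p = 0.0546, edgeR) and -0.03 ± 0.04 with shAD4-2 (adjusted p = 0.441). It passed the threshold with both hairpins in limma on log2(FPKM + 1), at -0.14 and -0.09 (adjusted p = 0.00201 and 0.0251).

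The base subunits without ATPase activity include the ubiquitin receptors. Psmd4, the receptor known as Rpn10, had 153, 154 and 147 FPKM in shAD4-1 cells and 153, 152 and 142 FPKM in shAD4-2 cells, against 84.1, 83.4 and 90.5 FPKM in shControl cells. It was 1.83-fold higher with shAD4-1 (0.87 ± 0.04, adjusted p = 4.27e-12, edgeR) and 1.81-fold higher with shAD4-2 (0.85 ± 0.04, adjusted p = 5.08e-12). Psmd1, the large scaffold subunit Rpn2, was higher with both hairpins, by 0.28 ± 0.04 with shAD4-1 (adjusted p = 1.86e-05, edgeR) and 0.50 ± 0.04 with shAD4-2 (adjusted p = 1.05e-08). Psmd2, the scaffold Rpn1, had -0.05 ± 0.04 with shAD4-1 (adjusted p = 0.201, edgeR) and 0.07 ± 0.04 with shAD4-2 (adjusted p = 0.0877). Leaving out control replicate 1 put Psmd2 past the threshold with shAD4-1 (-0.08, adjusted p = 0.0306), and leaving out shControl replicate 3 or shAD4-2 replicate 3 did so with shAD4-2 (0.0369 and 0.0282, edgeR).

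The lid, which carries the deubiquitinase Psmd14, was the role class with the most calls of higher. Beside it, all tested genes had 32.7% called higher and 32.3% lower with shAD4-1, and 34.2% and 34.8% with shAD4-2. With each hairpin 7 of the 8 Psm-named lid genes were called higher and Psmd3 lower. The class medians were 0.35 and 0.41 on the log2 scale. The summed level of these 8 was 1005 to 1010 FPKM in shAD4-1, 992.2 to 1025 in shAD4-2 and 728.5 to 773.3 in shControl libraries. The small lid subunit Sem1, which has no Psm symbol, went the other way. It had 351, 361 and 372 FPKM in shAD4-1 cells and 399.5, 374 and 383 FPKM in shAD4-2 cells, against 752, 796 and 823 FPKM in shControl cells. Its log2 fold changes were -1.07 ± 0.04 and -0.98 ± 0.04 (adjusted p = 1.68e-13 and 4.86e-13, edgeR). With Sem1 included, a choice made after the data were seen, the lid sum was lower in the hairpin cells, at 1359 to 1382 FPKM in shAD4-1, 1375 to 1424 in shAD4-2 and 1525 to 1551 in shControl libraries. Psmd8, the lid subunit Rpn12, had 460, 457 and 453 FPKM in shAD4-1 cells and 423, 409 and 413 FPKM in shAD4-2 cells, against 289, 266 and 267 FPKM in shControl cells, and it was the most abundant of the 8. It was 1.73-fold higher with shAD4-1 (0.79 ± 0.04, adjusted p = 1.59e-12, edgeR) and 1.57-fold higher with shAD4-2 (0.65 ± 0.04, adjusted p = 1.93e-11). Psmd6, the lid subunit Rpn7, had 52.4, 55.7 and 57.7 FPKM in shAD4-1 cells and 72.9, 72.0 and 74.6 FPKM in shAD4-2 cells, against 47.4, 39.9 and 35.0 FPKM in shControl cells. It was 1.41-fold higher with shAD4-1 (0.50 ± 0.07, adjusted p = 9.6e-06, edgeR) and 1.87-fold higher with shAD4-2 (0.90 ± 0.07, adjusted p = 3.5e-09). Psmd3, the lid subunit Rpn3, was called lower with shAD4-1 (-0.24 ± 0.04, adjusted p = 0.000106, edgeR) and with shAD4-2 (-0.13 ± 0.04, adjusted p = 0.0127). The second call was lost when shControl replicate 2 (adjusted p = 0.112), shControl replicate 3 (0.0535), shAD4-2 replicate 1 (0.0503) or shAD4-2 replicate 3 (0.0795) was left out.

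**Figure D3:**
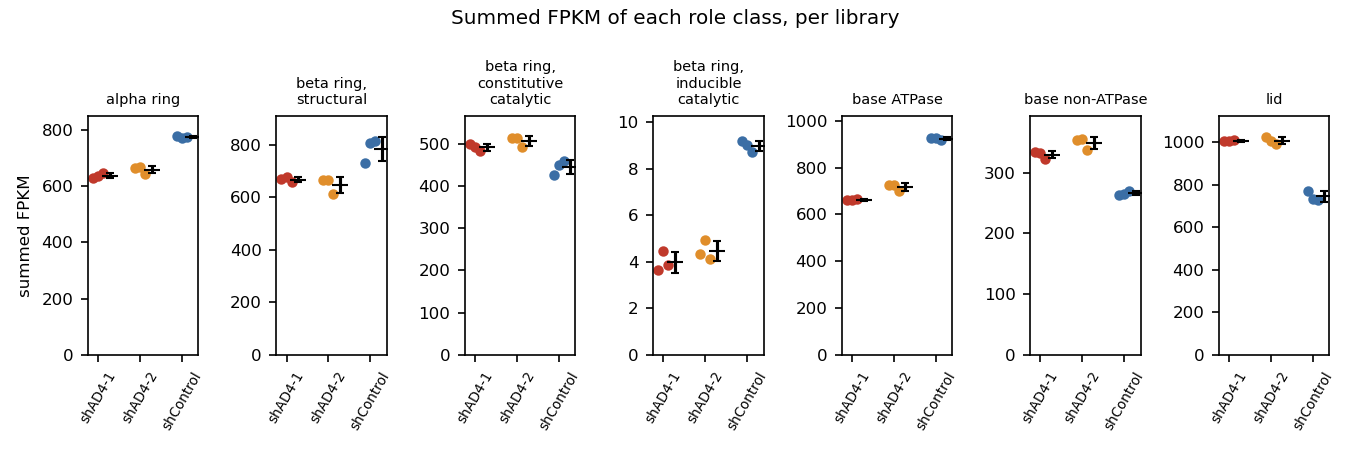
Summed FPKM (y axis, from 0) of the genes of each role class per library, for shAD4-1, shAD4-2 and shControl cells, with the mean and SD (n = 3) beside the points. The alpha ring, structural beta ring, inducible catalytic class and ATPases are lower, and the constitutive catalytic class, the other base subunits and the 8 Psm-named lid genes are higher, in every hairpin library than in any control library. The lid panel leaves out Sem1, with which its sum is lower in the hairpin libraries.

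Across the 31 constitutive subunits of core and cap, levels spanned 35.6 to 456 FPKM in shAD4-1, 37.1 to 415 in shAD4-2 and 40.8 to 286 in shControl cells, with medians of 100, 106 and 110 FPKM. The lowest was Psma3 and the highest Psmd8 in both hairpin groups, while Psmd6 was lowest and Psmc1 highest in the control. Without TMM scaling, the summed level of the constitutive core was 1798 ± 8.98 FPKM in shAD4-1, 1815 ± 54.9 in shAD4-2 and 2006 ± 61.4 in shControl cells, and that of the cap was 1998 ± 2.38, 2073 ± 39.5 and 1935 ± 26.3 FPKM (SD, n = 3 each). The core sum was below every control library in all 6 hairpin libraries. The sum of the Psm-named cap genes was above every control library, but this direction turned with the cap subunits that carry other symbols. With Sem1 and Adrm1 added, a choice made after the data were seen, the cap sum was 2426 to 2440 FPKM in shAD4-1, 2488 to 2582 in shAD4-2 and 2758 to 2779 in shControl libraries.

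Assembly chaperones changed in mixed directions. Psmg4, a core chaperone, averaged 22.7 ± 1.5 FPKM in shAD4-1 cells, 19.5 ± 1.75 in shAD4-2 cells and 31.0 ± 1.7 in shControl cells (SD, n = 3 each). It was called lower with shAD4-1 (-0.39 ± 0.09, adjusted p = 0.000843, edgeR) and with shAD4-2 (-0.62 ± 0.09, adjusted p = 8.17e-06). Psmg2 was called with neither, at 0.07 ± 0.06 and -0.11 ± 0.06 (adjusted p = 0.317 and 0.0998, edgeR). With shAD4-2 it passed the threshold under upper-quartile scaling (-0.14, adjusted p = 0.0404), with protein-coding genes only (0.0454) and in limma on log2(FPKM + 1) (0.0127). Of the other core chaperones, Psmg1 was called higher with both hairpins and Psmg3 with shAD4-2. Without shAD4-1 replicate 3 the call of Psmg1 with shAD4-1 was lost (adjusted p = 0.0568, edgeR), and without shAD4-1 replicate 2 Psmg3 passed the threshold with that hairpin (0.0284). Among the chaperones of the regulatory particle, Psmd9 was higher with shAD4-1 (0.29 ± 0.07, adjusted p = 0.00234, edgeR) and with shAD4-2 (0.48 ± 0.07, adjusted p = 1.28e-05), although 1849 of its 7248 exon bases overlap a noncoding gene on the opposite strand. Psmd5 was called lower with both hairpins, at -0.17 and -0.20, and Psmd10 with neither, at -0.03 ± 0.07 and -0.00 ± 0.07 (adjusted p = 0.736 and 0.992, edgeR).

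Of the remaining symbols, Psmf1, an inhibitor of the core in cell-free assays, had 0.12 and 0.16 (adjusted p = 0.0466 and 0.0114, edgeR). Its call with shAD4-1 was lost without either of shControl replicates 2 and 3 (0.127 and 0.113), when any single shAD4-1 library was left out (0.0507 to 0.111), without shAD4-2 replicates 1 or 2 (0.0552 and 0.0527), and also in DESeq2 (0.0513), limma on log2(FPKM + 1) (0.241) and the fit with the replicate block (0.0622). That with shAD4-2 was lost in limma on log2(FPKM + 1) (0.0654). Psme3ip1, a protein that binds the Psme3 ring, was called lower with shAD4-1 (-0.16 ± 0.05, adjusted p = 0.0176, edgeR) and had -0.04 ± 0.05 with shAD4-2 (adjusted p = 0.501). The first value lost its call without shControl replicate 3 (adjusted p = 0.103), shAD4-1 replicate 1 (0.0849) or shAD4-1 replicate 2 (0.0713). Psmc3ip, a recombination factor of meiosis named for its binding to Psmc3, had 4.05, 4.18 and 4.52 FPKM in shAD4-1 cells and 6.35, 5.73 and 5.23 FPKM in shAD4-2 cells, against 4.37, 4.44 and 4.15 FPKM in shControl cells. It was called with shAD4-2 (0.48 ± 0.09, adjusted p = 0.000124, edgeR), whose libraries all lay above the others, and had 0.03 ± 0.09 with shAD4-1 (adjusted p = 0.752).

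The hairpins were also compared directly, with shAD4-2 set against shAD4-1. Here 10 members were called higher and 3 lower, where 27.4% of all tested genes were called, 13.4% higher and 14.0% lower. No member reached 1.5-fold with a call, beside 0.963% of all genes higher and 2.93% lower. Without control replicate 1, which enters through the shared estimate of spread, the counts were 15 higher and 5 lower, and without shAD4-1 replicate 3 they were 10 and 1. The calls over all genes moved as well, from 3777 of 13807 to 4937 of 14028 and 2924 of 14071. The largest called differences were those of Psmc3ip (0.44 ± 0.09, adjusted p = 0.00131, edgeR), Psmd6 (0.40 ± 0.07, adjusted p = 0.000449) and Psmd1 (0.22 ± 0.04, adjusted p = 0.00122). Psme3 (0.16 ± 0.03, adjusted p = 0.00158), Psmc1 (0.15 ± 0.03, adjusted p = 0.00307) and Psmb5 (0.16 ± 0.04, adjusted p = 0.00596) were also higher with shAD4-2, and Psmd8 was lower (-0.14 ± 0.04, adjusted p = 0.0081, edgeR). All members called in this comparison apart from Psmc3ip, Psmd6 and Psmd1 differed by less than 0.18 on the log2 scale. In the GENCODE M21 annotation, Psmc3ip shares 385 of its 1818 exon bases with Mlx on the opposite strand. Of the 7265 exon bases of Psmd1, 301 are shared with Gm21972 on the same strand and 252 with Htr2b on the opposite strand.

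Genes that work with the proteasome without bearing a Psm symbol were read from a list of 28 partners and sources of ubiquitin, 27 of which were tested. Of these, 12 were called higher and 10 lower with shAD4-1, and 12 higher and 13 lower with shAD4-2, at medians of 0.05 and -0.06. All tested genes had 32.7% higher and 32.3% lower with shAD4-1, and 34.2% and 34.8% with shAD4-2. Adrm1, the ubiquitin receptor Rpn13 of the base, had 74.7, 68.8 and 70.6 FPKM in shAD4-1 cells and 77.9, 75.0 and 76.5 FPKM in shAD4-2 cells, against 42.0, 38.2 and 42.3 FPKM in shControl cells. It was 1.82-fold higher with shAD4-1 (0.86 ± 0.05, adjusted p = 1.9e-11, edgeR) and 1.95-fold higher with shAD4-2 (0.96 ± 0.05, adjusted p = 3.7e-12). These changes were close in size to those of the receptor Psmd4. Pomp, the maturation factor of the core, was lower with both hairpins, at -0.41 ± 0.04 and -0.18 ± 0.04 (adjusted p = 2.39e-07 and 0.00133, edgeR). Nfe2l1 was lower, at -0.27 ± 0.06 and -0.44 ± 0.07 (adjusted p = 0.00142 and 8.99e-06, edgeR), and Ddi2, the protease that activates its product, was higher, at 0.47 ± 0.09 and 0.49 ± 0.09 (adjusted p = 0.000119 and 7.34e-05). Usp14, a deubiquitinase bound to the base, was lower by little, at -0.13 ± 0.04 and -0.12 ± 0.04 (adjusted p = 0.0168 and 0.0177, edgeR). Both calls were lost without control replicate 1 (0.066 and 0.0852), the first also without shAD4-1 replicate 1 (0.106), and the second without shAD4-2 replicate 1 (0.0504) or replicate 2 (0.0997).

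The second list held 18 regulators of the inducible subunits and genes of class I peptide supply. Of the 17 tested, 5 were called higher and 12 lower with shAD4-1, and 4 higher and 11 lower with shAD4-2, beside the same shares of all genes, 32.7% and 32.3% with shAD4-1 and 34.2% and 34.8% with shAD4-2. The medians were -0.89 and -1.06, beside -0.01 for all genes in each comparison. Tap1, a subunit of the peptide transporter, had 2.27, 2.04 and 2.45 FPKM in shAD4-1 cells and 2.84, 3.04 and 3.58 FPKM in shAD4-2 cells, against 11.6, 12.9 and 13.0 FPKM in shControl cells. Its log2 fold changes were -2.41 ± 0.10 and -1.94 ± 0.09 (adjusted p = 1.74e-13 and 2.22e-12, edgeR). Those of its partner Tap2 were -1.87 ± 0.12 and -1.68 ± 0.12 (adjusted p = 1.35e-10 and 4.64e-10, edgeR). The class I transactivator Nlrc5 was lower by -3.91 ± 0.13 and -4.17 ± 0.14, and Irf1 by -1.33 ± 0.09 and -1.19 ± 0.09 on the log2 scale with shAD4-1 and shAD4-2. Set beside these, with no test between genes, the log2 fold changes of Psmb9 (-4.13 and -4.70) were of the size of those of Nlrc5, those of Psmb10 and Psme2 were nearer 0 than those of Irf1, and Psme1 rose. The values of Psmb9 rest on 1 to 5 reads per hairpin library, and it was tested only through its control reads.

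**Figure D4:**
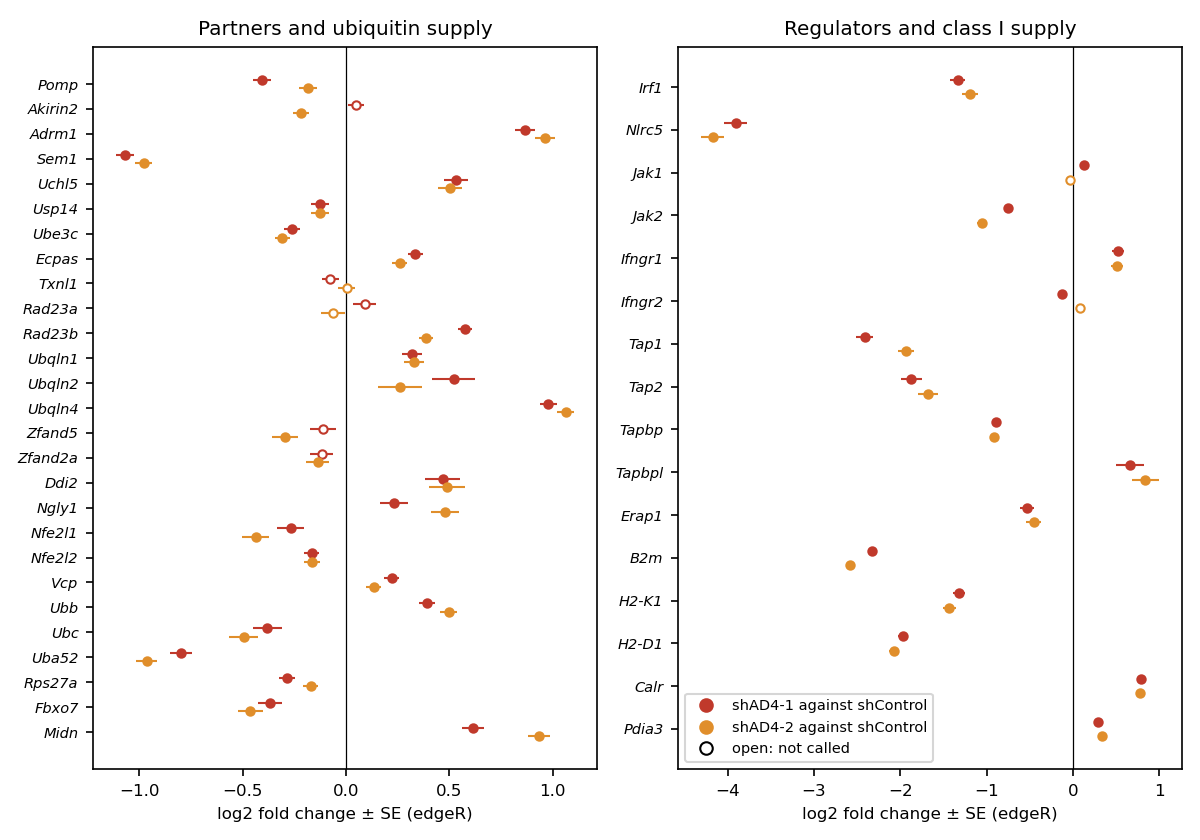
Log2 fold change (x axis, edgeR, ± SE) of 27 proteasome partners and ubiquitin genes (left) and 16 regulators and class I supply genes (right) for shAD4-1 (red) and shAD4-2 (orange) against shControl, with open circles for values not called. Partners spread on both sides of 0, between -1.07 and 1.06, whereas Nlrc5, B2m, Tap1, H2-D1 and Tap2 lie furthest left on the right-hand panel.

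Immunoproteasome genes are also abundant in leukocytes, and 7 of 10 leukocyte markers were in the table. Ptprc, Cd3e and Itgax had at most 10 reads each over the 9 libraries. The summed level of the 7 was 6.06 to 6.80 FPKM in shAD4-1, 6.83 to 7.48 in shAD4-2 and 2.72 to 3.21 in shControl libraries. This sum does not count leukocytes, and their part in the levels of Psmb9, Psmb10 and Psme2 was not tested. Most of the sum came from Cd68, at 3.65, 3.05 and 2.63 FPKM on average in shAD4-1, shAD4-2 and shControl cells, and from Lyz2, at 2.69, 4.01 and 0.177 FPKM. Of the 3 markers that were tested, 2 were called higher with shAD4-1 and 1 with shAD4-2, and 0 lower. All tested genes had 32.7% higher and 32.3% lower with shAD4-1, and 34.2% and 34.8% with shAD4-2, so 3 markers are too few to set against these shares. Fewer cells that express a gene and less RNA of it per cell cannot be told apart in these bulk libraries.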

How the data were processed

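The authors deposited whole-number read counts per gene for 9 libraries (3 per group) and FPKM values of the same genes. Per the labels' protocols the library kit was VAHTS Universal V6. The submitters' processing notes name fastp, HISAT2, HTSeq and GRCm39 without versions, and whether counting used strand is not given in the sources used here. The deposited FPKM follow from the deposited counts and 1 fixed length per gene.

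Counts were fitted in edgeR 4.0.16 (R 4.3.3), with all 9 libraries in 1 model, group as the only term, filterByExpr (13807 of 21676 genes kept, holding 99.968% of reads) and TMM factors of 0.985 to 1.032. Contrasts were tested with glmQLFTest with Benjamini-Hochberg adjustment across the whole tested table. SEs were obtained from each log2 fold change and the root of its F statistic, and fold changes are on edgeR's scale, so they can differ from FPKM ratios. The common biological coefficient of variation was 5.2%. The p-values measure the spread between these libraries. FPKM ratios were compared by exact permutation. The fit was first tested on simulated counts with known changes.

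The members and the lists were chosen with earlier results of these data known. Single values of some list genes are not reported here. Genes were named by a rule: the inducible subunits and counterparts, and in each role class the genes changed at least 1.5-fold and those moving most and least, with the genes of smallest adjusted p between hairpins. Psma5, Psmc5, Psmc6, Psmd5, Psmd14, Psmg1, Psmg3, Psmf1 and Sem1 were named after their values were seen. Alternatives were other scalings (RLE, upper quartile), DESeq2 1.42.0, limma 3.58.1 on log2(FPKM + 1) and log2(FPKM + 0.1), other filters, protein-coding genes only, only the 2 groups compared, a minimum fold of 1.5, a replicate block and leaving out each library. Promoter windows are RefSeq's and exon overlaps are from GENCODE M21, both on GRCm38, which is not the build of the counts. Transcript identities come from alignments of GENCODE M21 transcripts.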

Additional observations from a re-analysis of the deposited data

Results flagged for a closer look

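The direct comparison of the hairpins (shAD4-2 against shAD4-1, edgeR) gave a called difference for 13 of the 48 tested members. That is 27.1%, beside 27.4% of all tested genes. Higher with shAD4-2 were Psmc3ip (log2 difference 0.44), Psmd6 (0.40), Psmd1 (0.22), Psme3 (0.16), Psmb5 (0.16), Psmc1 (0.15), Psmc5 (0.17, adjusted p = 0.00527), Psmc6 (0.16, adjusted p = 0.00481), Psmd2 (0.13, adjusted p = 0.0151) and Psmd14 (0.12, adjusted p = 0.0456). Lower were Psmg2 (-0.18, adjusted p = 0.0292), Psmd8 (-0.14) and Psme4 (-0.13, adjusted p = 0.0121). Several of these calls were lost when 1 library was left out (adjusted p, edgeR). For Psme4 this held for shAD4-1 replicates 2 (0.0559) and 3 (0.0527) and shAD4-2 replicate 2 (0.0797). For Psmd2 it held for shAD4-1 replicate 3 (0.0655) and shAD4-2 replicates 1 (0.0545) and 2 (0.0777). For Psmg2 it held for shAD4-1 replicates 1 (0.0936) and 3 (0.0889) and shAD4-2 replicate 3 (0.172). For Psmd14 it held for shControl replicate 2 (0.0556), shAD4-1 replicates 1 (0.13) and 2 (0.167), and shAD4-2 replicates 1 (0.218) and 2 (0.139), and with the replicate block (0.0655). Psmd2 and Psmg2 were called with neither hairpin against control.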

How the results depend on the processing

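The log2 fold changes of the tested members and of the named list genes gave 3653 combinations of result and alternative. The counts of calls and the FPKM ratios are not among these combinations and are treated separately below. Of the 3653, 3424 kept their side of the threshold, 155 lost a call (85 of them under a minimum fold of 1.5), 62 gained one and 12 moved without a call. No called value reversed, and 73 uncalled values of at most 0.05 changed sign. Requiring a change beyond 1.5-fold (edgeR's glmTreat) left 3 members higher and 6 lower with shAD4-1, 4 higher and 4 lower with shAD4-2, and 0 higher and 0 lower between hairpins, where the threshold itself is stricter. In the same order it called 2060, 2607 and 50 of all 13807 tested genes. Leaving out each library in turn gave 14 to 18 members higher and 21 to 23 lower with shAD4-1, 19 to 21 higher and 18 to 21 lower with shAD4-2, and 8 to 15 higher and 1 to 5 lower between hairpins. Over all tested genes these fits called 8372 to 9206 genes with shAD4-1, 8985 to 9704 with shAD4-2 and 2785 to 4937 between hairpins. The pseudocount moved ratios with a partner near 0: Psmb9 to Psmb6 was -1.96 (shAD4-1) and -1.95 (shAD4-2) on log2(FPKM + 1) and -3.92 and -4.11 on log2(FPKM + 0.1), and Psmb8 to Psmb5 was -0.70 and -0.80 on log2(FPKM + 1), against -1.61 on log2(FPKM + 0.1) for shAD4-1 and -1.92 without a pseudocount for shAD4-2. Psmd9 lost its call with shAD4-1 under limma without a filter (adjusted p = 0.052). Same-numbered libraries of different groups did not deviate together (correlations of -0.124 to 0.002), so numbers do not pair them. The sums of the lid and the cap turned with Sem1 added, as given above. With the replicate block 15 members were higher and 22 lower with shAD4-1, 20 and 21 with shAD4-2, and 9 and 3 between hairpins. That fit called 8833, 9375 and 3511 of all 13807 tested genes. Depth limits Psmb8, Psmb9 and Psmb11, for which the hairpin libraries held 0 to 5 reads each.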
